A study of Mus musculus with 9 samples.

Results

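The conjugating enzymes of phase II metabolism were examined in mouse liver after feeding with a high-fat diet (HFD) stored in either a freezer (the HFDfre group) or a fridge (the HFDfri group). The enzymes were picked out by gene symbol, and these families were chosen with earlier results of these data known. Taken were the UDP-glucuronosyltransferases (Ugt1a, Ugt2a, Ugt2b and Ugt3a), the cytosolic sulfotransferases (Sult1 to Sult5) and the soluble and kappa-class glutathione transferases (Gsta, Gstk, Gstm, Gsto, Gstp, Gstt and Gstz), without symbols marked as pseudogenes. They were 58 of the 33211 genes in the table, namely 20 glucuronosyltransferases, 17 sulfotransferases and 21 glutathione transferases. Of these, 45 had at least 10 counts in at least 4 libraries (19, 7 and 19 of the 3 classes), and the same number passed the filter of the test. That minimum was the measured value the rule used.

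Liver RNA of wild-type male C57BL/6 mice (C57BL6/J in the study's methods) was sequenced, with 5 HFDfre libraries and 4 HFDfri libraries. Per the methods of the study, the mice were 8 weeks old at the start and were fed for 7 weeks. The opened diet was held at -20 °C (HFDfre) or 4 °C (HFDfri) before use. Both groups were fed the same HFD and neither is a low-fat control, so the values give no effect of the HFD itself. They compare groups of mice that differed by diet storage and, in the study, also in body weight and fat mass. The labels do not say that each library is a separate animal, and p-values then measure the spread between these libraries.

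Phase II enzymes attach a polar group to drugs, hormones, bilirubin and reactive lipids, so that the product can leave the cell in bile or blood. Glucuronosyltransferases sit in the endoplasmic reticulum and take glucuronic acid from UDP-glucuronate, sulfotransferases take sulfate from PAPS in the cytosol, and glutathione transferases add glutathione to electrophiles such as the aldehydes of peroxidised fat. In the liver many of these genes respond to the nuclear receptors CAR and PXR, to the aryl hydrocarbon receptor and to NRF2, the regulator of the antioxidant response.

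The libraries held 58614917 to 69353439 counts. CPM values give the level of a gene relative to the depth of its library, after TMM (a correction for composition), with the SD over libraries, and differences are given as the log2 fold change of HFDfri against HFDfre with its standard error. The liver label was checked with 10 hepatocyte genes, which summed to 107100 to 114300 CPM in HFDfre and 98680 to 133500 CPM in HFDfri. In such bulk tissue fewer cells of a type and less RNA per cell cannot be told apart. The composition of the libraries differed between the groups: mitochondrial genes took 11.4% to 19.8% of the counts in HFDfre and 8.93% to 13.6% in HFDfri, the major urinary protein genes 5.12% to 8.94% and 9.17% to 14.4%, and the ribosomal RNA-like locus Gm26924 1.20% to 11.1% and 0.466% to 5.21%. With Gm26924 and the mitochondrial genes left out of the counts the number of enzymes called was 8, as with all genes. With the share of Gm26924 as a covariate it was 5, and the enzymes higher at an unadjusted p under 0.05 were 3 in place of 5. The part of the urinary protein genes was not tested.

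By the adjusted calls of edgeR, 6 of 19 glutathione transferases fell in the liver of mice fed by HFDfri and 0 rose. Of the 19 glucuronosyltransferases 2 rose and 0 fell. DESeq2 called 15 of the 45 enzymes, where it called 1068 of all 14220 genes. Its lower calls included the glucuronosyltransferases Ugt2b36 and Ugt1a6a (adjusted p = 0.00204 and 0.0394 by DESeq2). By edgeR's quasi-likelihood test with Benjamini-Hochberg adjustment over 14220 genes, 8 of the 45 enzymes tested passed an adjusted p of 0.05, which is 17.8% of them, against 1.05% of all genes tested. Lower in HFDfri were 6 enzymes, all of them glutathione transferases (Gsta1, Gsta2, Gstm1, Gstm2, Gstt1 and Gstt2), and 0.556% of all genes were called in that direction. Higher were 2, both of the Ugt2b family (Ugt2b1 and Ugt2b38), against 0.499% of all genes. An unadjusted p under 0.05 was found for 23 of the 45 (51.1%), against 21.2% of all genes. Of these, 18 were lower and 5 higher, where 9.79% of all genes were lower and 11.4% higher at that level. The values of the libraries did not overlap between the groups for 13 of the 45 (28.9%), 10 lower and 3 higher, against 7.69% of all genes, 3.66% lower and 4.02% higher.

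The adjusted calls depended on single libraries. By edgeR 0 enzymes passed without HFDfre 3, HFDfre 5 or HFDfri 4, and Gstt2 alone passed without HFDfri 3. Of all enzymes tested, 4 passed without HFDfre 1, 3 without HFDfre 4 and 6 each without HFDfre 2 or HFDfri 2. Without HFDfri 1 it was 10 of 46 enzymes, where 1106 of all 14463 genes passed. In each of these fits the direction of all 8 was kept, and every one of the 8 had an unadjusted p under 0.05. Scaling by library totals left 2 of them, Gsta2 and Ugt2b38, 1 in each direction, and turned the 18 lower and 5 higher enzymes at an unadjusted p under 0.05 into 11 and 6. With limma-voom and with robust dispersion 7 of the 8 passed, without Gsta1 (adjusted p = 0.115 and 0.0515).

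**Figure D1:**
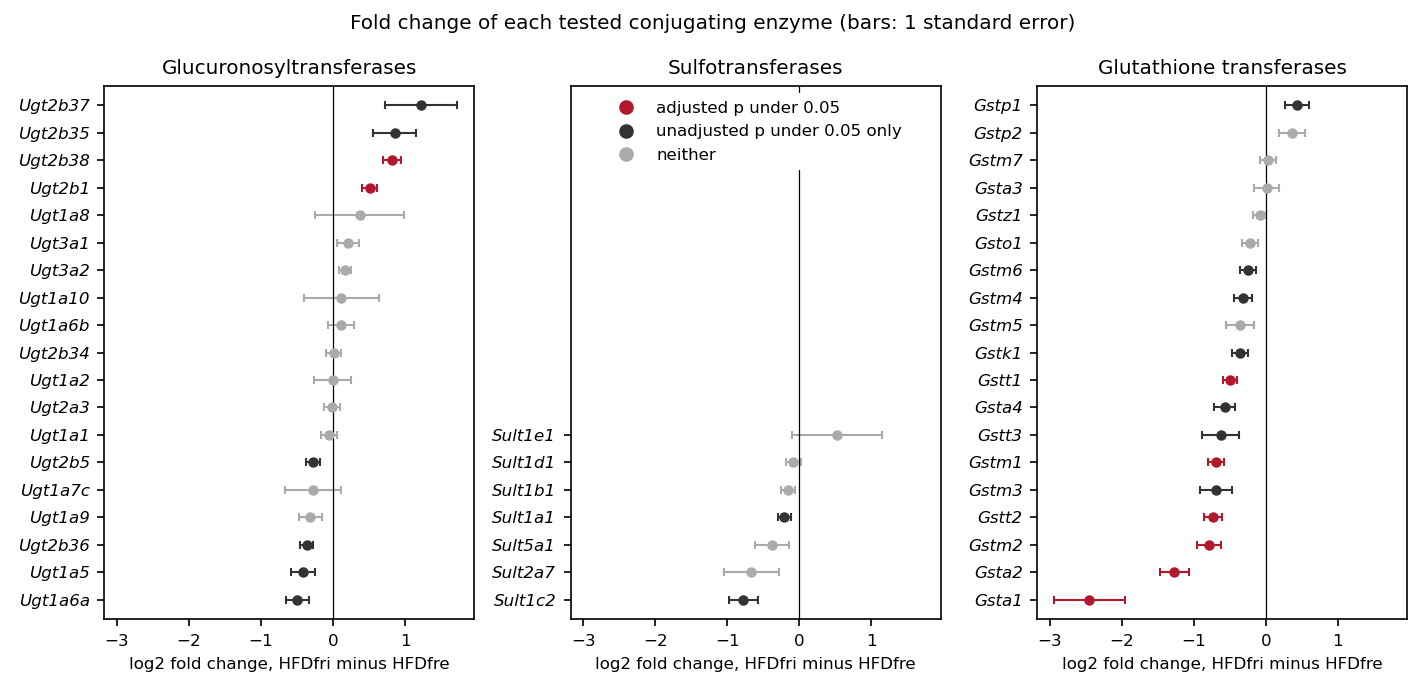
The log2 fold change of HFDfri against HFDfre is plotted for the 45 conjugating enzymes tested, in 1 panel for each class, with bars of 1 standard error, in red for an adjusted p under 0.05 and in black for an unadjusted p under 0.05 only. Among the glutathione transferases 15 of 19 lie left of 0 and all 6 red points are there, while the 2 red points of the glucuronosyltransferases lie to the right.

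By class, 4 of the 19 glutathione transferases were above 0 and 15 below, with a median log2 fold change of -0.36. For the 7 sulfotransferases it was 1 above and 6 below, with a median of -0.21. By edgeR 0 of these passed the adjusted threshold, and 2 had an unadjusted p under 0.05 (Sult1a1 and Sult1c2), against 21.2% of all genes. Sult1c2 passed with DESeq2, which called 1068 of all 14220 genes. Among the 19 glucuronosyltransferases, 10 were above and 9 below, with a median of 0.01. The median of all 14220 genes was -0.01. The glutathione transferases summed to 4258 ± 222 CPM in HFDfre and 3893 ± 370 CPM in HFDfri, the glucuronosyltransferases to 3084 ± 118 and 2969 ± 150, and the sulfotransferases to 732 ± 33.1 and 651 ± 52.3. After TMM the sums of the sulfotransferases did not overlap (707 to 782 against 576 to 697 CPM), and those of the other classes did. Taken over library totals instead, the sulfotransferase sums overlapped too (means of 0.0721% and 0.0666% of all counts). As a share of all counts, without TMM, the glucuronosyltransferases took 0.304% and 0.305%, so the sign of their small difference turned with the scaling.

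The mu-class glutathione transferases lie in a cluster of 7 genes on chromosome 3 (chr3:107895821-108044894, GRCm38). Gstm1, the main mu-class enzyme of mouse liver, was together with Gstp1 the most abundant glutathione transferase per kb of merged exons (512 and 517 CPM per kb over all libraries). The longest transcripts are shorter than the merged exons, 1289 against 1473 bp for Gstm1 and 821 against 1548 bp for Gstp1. The near-tie of these genes therefore depends on the length used, and it is a mean over groups in which the order differed. Gstm1 was at 617 and Gstp1 at 448 CPM per kb in HFDfre, against 382 and 604 CPM per kb in HFDfri. Gstm1 measured 916, 733, 943, 1007 and 944 CPM in HFDfre 1 to 5 and 584, 579, 534 and 554 CPM in HFDfri 1 to 4. All HFDfri libraries were below the lowest HFDfre library, HFDfre 2, and they lay within a narrow range. The fall was from 908 ± 104 to 563 ± 23.2 CPM (log2 fold change -0.69 ± 0.11, adjusted p = 0.0293 by edgeR's quasi-likelihood test), and over 20 alternatives the log2 fold change stayed between -0.77 and -0.64. Gstm2, a neighbour in the cluster, measured 45.6, 38.5, 71.8, 49.7 and 50.00 CPM in HFDfre and 32.6, 31.1, 24.4 and 30.5 CPM in HFDfri. It fell by 0.79 on the log2 scale (SE 0.16, edgeR adjusted p = 0.0467), again with no overlap, although HFDfre 3 stood well above the other libraries.

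The other mu-class genes did not pass the adjusted threshold by edgeR, and Gstm3 passed with DESeq2 (adjusted p = 0.0262). Gstm3 (-0.69), Gstm4 (-0.32) and Gstm6 (-0.25) had negative log2 fold changes with an unadjusted p under 0.05 by edgeR, Gstm5 was at -0.35 without it, and Gstm7 was level at 0.03. Gstm1 made up most of the mu-class sum, which was 920 to 1220 CPM in HFDfre and 679 to 763 CPM in HFDfri, a ratio of the means of 0.651. Within 500 kb of the cluster 17 other genes were tested. Of these, 7 were higher and 10 lower, the median of their log2 fold changes was -0.06, and 1 in each direction had an unadjusted p under 0.05.

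The 120 bases before the start of Gstm1 in RefSeq (GRCm38.p6, chr3:108017974-108018093, minus strand) are shown because the gene carries most of the mu-class difference, with the GCGTG core that the aryl hydrocarbon receptor recognises in capitals. That core was found on either strand in the window of 250 bases before to 50 after the start for 10 of the 50 enzymes with a RefSeq window, and for 35.2% of all 27025 genes.
Gstm1: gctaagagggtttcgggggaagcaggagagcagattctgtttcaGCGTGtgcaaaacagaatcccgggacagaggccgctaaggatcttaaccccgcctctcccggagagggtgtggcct

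The theta class, which handles small halogenated molecules and hydroperoxides, was lower in HFDfri in all 3 genes tested. Its genes lie on chromosome 10 (chr10:75774115-75837424, GRCm38), 4 in number. Gstt1 measured 362, 282, 334, 350.0 and 351 CPM in HFDfre and 239, 242, 216 and 253 CPM in HFDfri, and fell by 0.50 on the log2 scale (SE 0.0985, edgeR adjusted p = 0.0407). Gstt2 measured 51.0, 50.5, 59.5, 50.4 and 48.6 CPM in HFDfre and 23.4, 32.4, 38.1 and 31.1 CPM in HFDfri. It fell from 52.0 ± 4.32 to 31.3 ± 6.05 CPM (log2 fold change -0.73 ± 0.13, edgeR adjusted p = 0.0322). For both genes the groups did not overlap. Gstt3 was at -0.63 with HFDfri 1 (17.6 CPM) far below the other HFDfri libraries (38.2 to 54.2 CPM), and its groups overlapped (adjusted p = 0.197 by edgeR). Of the 18 other genes tested within 500 kb of these genes, 11 were higher and 7 lower.

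**Figure D2:**
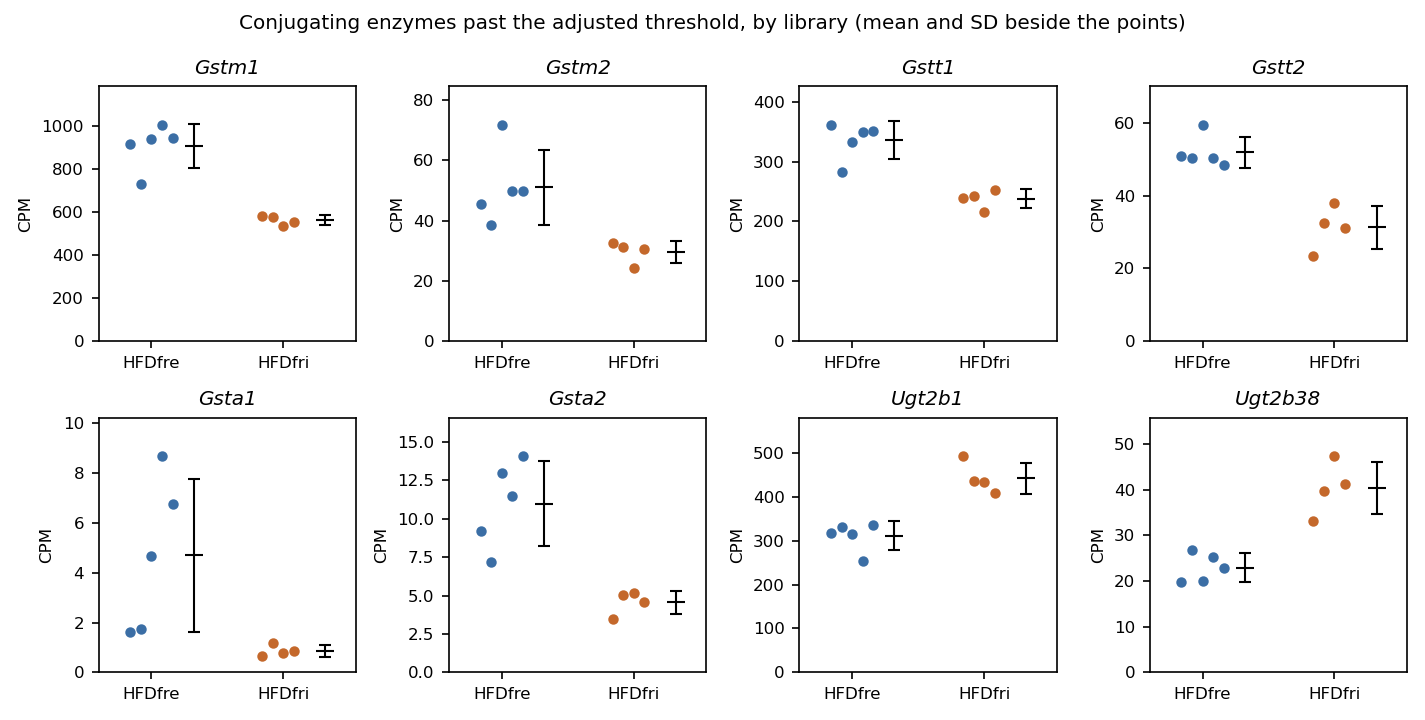
Each panel plots the CPM of 1 gene (vertical axis, from 0) in the 5 HFDfre and 4 HFDfri libraries as points, with the group mean and SD beside them, for the 8 enzymes past the adjusted threshold. In every panel the groups are apart, the 6 glutathione transferases being lower and Ugt2b1 and Ugt2b38 higher in HFDfri.

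The alpha class, which detoxifies the aldehydes and hydroperoxides of oxidised lipids, was split between scarce genes that fell and an abundant gene that was level. Gsta1 measured 1.64, 1.76, 4.68, 8.67 and 6.75 CPM in HFDfre and 0.641, 1.19, 0.760 and 0.839 CPM in HFDfri. The HFDfre libraries were spread over a wide range, with HFDfre 1 and HFDfre 2 near the HFDfri values, and the difference was -2.45 ± 0.49 on the log2 scale (adjusted p = 0.0429 by edgeR). Gsta2 measured 9.22, 7.21, 12.9, 11.5 and 14.1 CPM in HFDfre and 3.47, 5.01, 5.19 and 4.56 CPM in HFDfri. It fell by 1.27 on the log2 scale (SE 0.20, edgeR adjusted p = 0.0293), with no overlap between the groups. These genes are near-copies: 81.8% of the 100-base stretches of the Gsta1 transcript and 35.0% of those of Gsta2 occur in other genes. Those other genes include Gm3776 and Gm10639 as well as each other, so the division of the reads among all of them is uncertain.

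Gsta1 and Gsta2 also resemble each other before their starts. The 120 bases upstream (RefSeq, GRCm38.p6, chr9:78230549-78230668, plus strand, and chr9:78347146-78347265, minus strand) are shown because both genes fell, with their longest identical stretch, 28 bases, in capitals.
Gsta1: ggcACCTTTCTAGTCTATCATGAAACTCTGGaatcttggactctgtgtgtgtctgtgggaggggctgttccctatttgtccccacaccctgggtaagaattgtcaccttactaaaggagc
Gsta2: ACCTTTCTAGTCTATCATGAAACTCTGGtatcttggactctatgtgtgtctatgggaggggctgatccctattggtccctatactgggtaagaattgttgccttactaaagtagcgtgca

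Gsta4, which is selective for 4-hydroxynonenal, a breakdown product of polyunsaturated fat, measured 29.2 to 37.5 CPM in HFDfre and 17.6 to 29.04 CPM in HFDfri. The groups did not overlap, and the log2 fold change of -0.57 ± 0.14 missed the adjusted threshold by edgeR (adjusted p = 0.0725). Gsta4 passed with DESeq2 (adjusted p = 0.00679). Gsta3, the abundant alpha-class enzyme, was at 1040 ± 92.3 and 1050 ± 287 CPM. HFDfri 1 was at 635 CPM against 1083 to 1248 CPM in the other HFDfri libraries, and the log2 fold change of 0.01 ± 0.18 took either sign among the alternatives. The alpha-class sums, which Gsta3 dominates, therefore overlapped widely (972 to 1228 and 657 to 1272 CPM).

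The pi class stood on the other side. Gstp1, a conjugating enzyme that is more abundant in male than in female mouse liver, measured 856, 592, 777, 509 and 732 CPM in HFDfre and 1063, 892, 725 and 1061 CPM in HFDfri. The groups overlapped through HFDfri 3, and the log2 fold change of 0.43 ± 0.17 had an unadjusted p of 0.0225 and an adjusted p of 0.168 by edgeR. Its near-copy Gstp2 was at 0.36, and 52.8% of the 100-base stretches of Gstp1 are shared, so the pair is best read as a sum, which was 740.0 ± 152 CPM in HFDfre and 995 ± 172 CPM in HFDfri. Of the single-gene classes, Gstk1 was at -0.36 (adjusted p = 0.105 by edgeR and 0.0296 by DESeq2). Gsto1 was at -0.22, and Gstz1, which degrades a tyrosine intermediate, at -0.08.

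**Figure D3:**
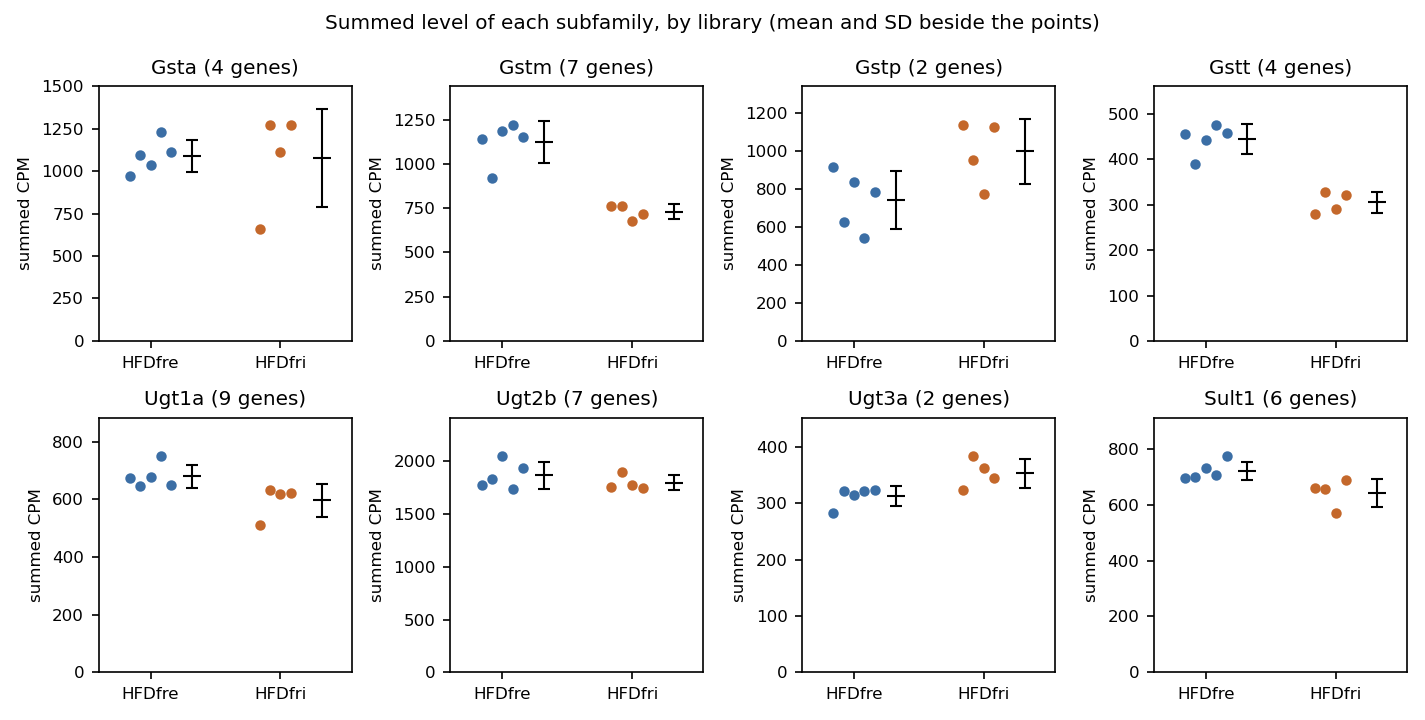
Each panel plots the summed CPM of 1 subfamily (vertical axis, from 0) in every library as points, with the group mean and SD beside them, and the number of genes summed in its title. The Gstm and Gstt sums of HFDfri lie well below all HFDfre libraries, the Ugt1a and Sult1 sums just below and the Ugt3a sum just above them, while the Gsta, Gstp and Ugt2b sums overlap.

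The Ugt2b glucuronosyltransferases, which conjugate steroids, bile acids and many drugs, lie within 1 cluster on chromosome 5 (chr5:86889767-87482260, GRCm38, with the Ugt2a genes). Their log2 fold changes lay on both sides of 0, with edgeR calls among the higher ones only. DESeq2 also called Ugt2b36, which was lower. Ugt2b1 measured 316, 331, 316, 255 and 336 CPM in HFDfre and 492, 435, 433 and 408 CPM in HFDfri. It rose from 311 ± 32.6 to 442 ± 35.4 CPM (0.51 ± 0.10 on the log2 scale, adjusted p = 0.0464 by edgeR). Ugt2b38 measured 19.8, 26.9, 20.1, 25.3 and 22.8 CPM in HFDfre and 33.2, 39.7, 47.3 and 41.4 CPM in HFDfri, and rose by 0.81 ± 0.12 on the log2 scale (adjusted p = 0.0293 by edgeR). The groups did not overlap for either gene. Ugt2b35 (0.86 ± 0.30) and Ugt2b37 (1.23 ± 0.50) were also above 0 without passing the adjusted threshold by edgeR (0.138 and 0.191). DESeq2 called Ugt2b35 (adjusted p = 0.0331). The value of Ugt2b37 rested on HFDfri 1 (9.22 CPM against 1.64 to 4.10 CPM in the others) and was 0.47 without it.

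The most abundant glucuronosyltransferases per length, Ugt2b5 (303 CPM per kb) and Ugt2b36 (248 CPM per kb), leaned the other way. Ugt2b36 measured 522, 550.3, 609, 566 and 591 CPM in HFDfre and 438, 478, 407 and 437 CPM in HFDfri, with no overlap. Its log2 fold change of -0.37 ± 0.09 had an adjusted p of 0.0698 by edgeR and 0.00204 by DESeq2. Ugt2b5 was at 610 ± 55.7 and 505 ± 34.6 CPM (-0.27 ± 0.10, edgeR adjusted p = 0.152), and its groups overlapped slightly. Ugt2b34 was level at 0.01. The sum of the 7 Ugt2b genes therefore differed little, with 1868 ± 126 CPM in HFDfre and 1798 ± 70.5 CPM in HFDfri, and the groups overlapped.

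Ugt2b5 and Ugt2b38 share part of their sequence and had opposite signs. Of their 100-base stretches 24.7% and 24.2% occur in other genes, which include each other, so the division of those reads is uncertain. The 120 bases before their starts (RefSeq, GRCm38.p6, chr5:87140341-87140460 and chr5:87424204-87424323, both minus strand) are shown because of the opposite signs, with the longest identical stretch, 62 bases, in capitals. The same bases before the start of Ugt2b1 (chr5:86926504-86926623, minus strand) are given beside them, in lower case throughout.
Ugt2b5: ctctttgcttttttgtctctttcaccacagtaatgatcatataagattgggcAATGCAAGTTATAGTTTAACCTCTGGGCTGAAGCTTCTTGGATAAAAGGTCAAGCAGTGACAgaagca
Ugt2b38: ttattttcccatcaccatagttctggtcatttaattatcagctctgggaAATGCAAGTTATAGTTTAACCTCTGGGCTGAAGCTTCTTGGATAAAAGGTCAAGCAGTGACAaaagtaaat
Ugt2b1: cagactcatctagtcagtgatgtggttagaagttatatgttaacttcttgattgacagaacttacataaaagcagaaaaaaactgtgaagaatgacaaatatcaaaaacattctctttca

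The 9 Ugt1a genes, which include the bilirubin enzyme Ugt1a1, are first exons joined to shared last exons (chr1:88055388-88220002, GRCm38), so reads of the shared part cannot be assigned to 1 of them and the locus sum is the safer measure. After TMM the sum was 648 to 749 CPM in HFDfre and 512 to 632 CPM in HFDfri (680 ± 41.2 and 596 ± 56.8 CPM), with no overlap, a difference of -0.19 on the log2 scale. Taken over library totals instead, the groups overlapped (means of 0.06696% and 0.06145% of all counts). Of the 12 other genes tested within 500 kb, 9 were lower and 3 higher with a median of -0.20. An unadjusted p under 0.05 by edgeR was found for 3 of the 12, all lower, against 9.79% of all genes lower at that level. Ugt1a1 was at 260 ± 32.7 and 250.2 ± 24.7 CPM (log2 fold change -0.05 ± 0.11), and its sign turned with library totals. Ugt1a6a, which conjugates planar phenols, was at -0.49 (adjusted p = 0.122 by edgeR and 0.0394 by DESeq2). Ugt1a5 was at -0.42 (adjusted p = 0.180 by edgeR). Of the Ugt3a genes, which use other sugars than glucuronate, Ugt3a2 was at 254 ± 13.5 and 286 ± 11.04 CPM with no overlap (unadjusted p = 0.0585 by edgeR).

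Sulfotransferases were dominated by Sult1a1, the phenol sulfotransferase, and Sult1d1, which takes catecholamines and eicosanoids (276 and 95.2 CPM per kb). Sult1a1 measured 424 to 461 CPM in HFDfre and 341 to 401 CPM in HFDfri with no overlap, a log2 fold change of -0.21 ± 0.09 that did not pass the adjustment (edgeR adjusted p = 0.201). Sult1c2 measured 3.89 to 5.62 CPM and 1.70 to 3.36 CPM with no overlap (-0.78 ± 0.20, edgeR adjusted p = 0.0801). Sult1d1 was at -0.08, Sult1b1, which sulfates thyroid hormone, at -0.16, and Sult5a1 at -0.38, all with overlapping groups. The 13 enzymes below the count minimum included 10 sulfotransferases. Sult1c1 and Sult2a2 to Sult2a6 were listed at 0 in every library, where the limit of 3 counts comes to at most 0.0512 CPM, and Sult2a1, Sult2b1 and Sult4a1 had at most 8 counts in a library. Low deposited values are unevenly spread, with 3990 entries at 4 against 2172 at 3 and 1840 at 5, so a count need not be 1 read and the limit may lie below 1 fragment. Sult3a1, a sulfotransferase of female mouse liver, had 35, 7 and 4 counts in HFDfre 4, 3 and 5 and 0 in the other libraries. Gsto2, Gstt4 and Ugt2a1 were the other enzymes below the minimum, with at most 23 counts.

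Among the sensors that act on these genes, Nr1i3, which encodes CAR, was lower in HFDfri. It measured 420, 630.1, 594, 486 and 446 CPM in HFDfre and 212, 274, 262 and 346 CPM in HFDfri, with no overlap, and fell by 0.92 on the log2 scale (SE 0.16, edgeR adjusted p = 0.0333). Of 19 sensors and regulators tested it was the 1 past the adjusted threshold by edgeR, and DESeq2 called 7, of which 4 were higher. Above 0 were 9 and below it 10. At an unadjusted p under 0.05 by edgeR 7 were higher and 5 lower, against 11.4% and 9.79% of all genes. The higher ones included Hnf4a, a master regulator of hepatocytes (0.46 ± 0.10, edgeR adjusted p = 0.0566), and Bach1, a repressor of NRF2 target genes (0.41 ± 0.11, edgeR adjusted p = 0.0867), both with no overlap, as well as Maff (0.65 ± 0.16) and Ppara (0.82 ± 0.25). Nfe2l2, which encodes NRF2, measured 57.5 to 81.7 CPM in HFDfre and 49.3 to 50.7 CPM in HFDfri with no overlap (-0.42 ± 0.10, edgeR adjusted p = 0.0701). Nr1i2 (PXR, -0.10) and Ahr (-0.17) had overlapping groups. The transcript level of any of these genes, Nr1i3 and Nfe2l2 included, does not measure the activity of the protein. The call of Nr1i3 was lost with library totals, with the share of Gm26924 as a covariate, and without HFDfre 2, 3, 4 or 5 or HFDfri 3, its log2 fold change staying between -1.05 and -0.82.

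The targets of these sensors outside phase II showed 0 genes past the adjusted threshold by edgeR, and DESeq2 called 5 of the oxidative-phase and 5 of the NRF2 targets. Of 14 oxidative-phase targets 10 were below 0 (median -0.51 on the log2 scale). At an unadjusted p under 0.05 by edgeR 6 were lower and 1 higher, where 9.79% of all genes were lower and 11.4% higher. Cyp1a1 and Cyp1a2 were high in HFDfre 3 (29.4 and 1992 CPM) and HFDfre 1 (2.50 and 1272 CPM), while the other libraries lay at 0.196 to 0.716 and 198 to 488 CPM. Of 13 NRF2 targets outside phase II 9 were below 0, with a median of -0.43, and 6 of them had an unadjusted p under 0.05 against 2 above 0. Nqo1, the quinone reductase often read as an NRF2 marker, was at 6.24 ± 0.906 and 3.82 ± 1.38 CPM (-0.71 ± 0.22, edgeR adjusted p = 0.110).

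**Figure D4:**
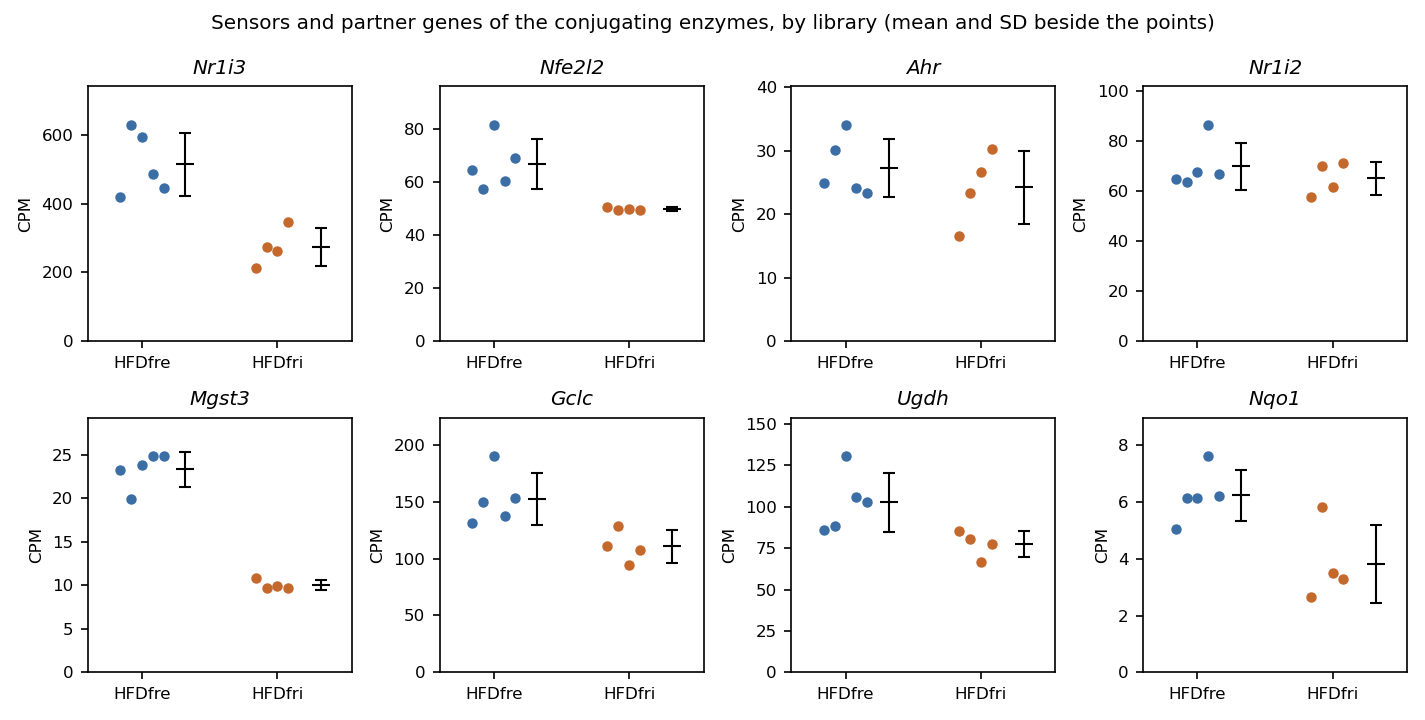
Each panel plots the CPM of 1 gene (vertical axis, from 0) in every library as points, with the group mean and SD beside them: the sensors Nr1i3, Nfe2l2, Ahr and Nr1i2, the membrane enzyme Mgst3, and Gclc, Ugdh and Nqo1. The HFDfri libraries of Nr1i3, Nfe2l2, Mgst3, Gclc and Ugdh lie below all HFDfre libraries, and those of Ahr, Nr1i2 and Nqo1 overlap with them.

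Mgst3, a glutathione transferase of microsomal membranes that belongs to a separate protein family and was not among the 58, was lower as well. It measured 23.3, 20.0, 23.8, 24.8 and 24.8 CPM in HFDfre and 10.8, 9.67, 9.92 and 9.72 CPM in HFDfri, a difference of -1.22 ± 0.10 on the log2 scale (edgeR adjusted p = 4.82e-04), which had the smallest p of all 14220 genes. Its adjusted call held in 19 of 20 alternatives, the exception being the term for the replicate number (0.0527). Mgst1, the abundant member of that family, was at 3818 ± 373 and 3167 ± 450.2 CPM (-0.27 ± 0.13, edgeR adjusted p = 0.246). Mgst3 was the 1 gene called among 17 other conjugating enzymes tested, which had a median of -0.09.

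For the cofactors, 16 genes of glucuronate, PAPS and glutathione supply were tested and 0 passed the adjusted threshold by edgeR. Above 0 were 7 and below it 9, with a median of -0.06. At an unadjusted p under 0.05 by edgeR 1 was above and 4 below, against 11.4% and 9.79% of all genes. DESeq2 called 4, where it called 1068 of all 14220 genes. Gclc and Ugdh, which make the first step of glutathione synthesis and UDP-glucuronate, did not overlap between the groups (-0.46 ± 0.13 and -0.41 ± 0.13, edgeR adjusted p = 0.0886 and 0.117). Papss2, which makes PAPS, was level at 0.08 ± 0.13. Of 13 transporters that carry conjugates 0 passed by edgeR and 4 had an unadjusted p under 0.05, against 21.2% of all genes. DESeq2 called 2 of them. The efflux pumps Abcc3 (-0.45 ± 0.17) and Abcc2 (0.38 ± 0.20) pointed in opposite directions. The 10 deconjugating enzymes tested had a median of 0.05, and 0 of them passed an unadjusted p of 0.05 by edgeR or the adjusted threshold with DESeq2.

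Markers of the cells that a liver sample can hold were read beside these values. Of 83 markers tested in 9 lists 0 passed the adjusted threshold by edgeR. At an unadjusted p under 0.05 by edgeR were 22 of the 83, against 21.2% of all genes. DESeq2 called 11 of the 83, against 1068 of all 14220 genes. The 12 markers of pericentral hepatocytes, the zone richest in drug-metabolising enzymes, were below 0 in 11 cases (median -0.24 on the log2 scale) and summed to 10510 to 12130 CPM in HFDfre and 9660 to 10540 CPM in HFDfri. Glul, the defining pericentral gene, was at -0.11 (edgeR adjusted p = 0.559). The 12 periportal markers were above 0 in 5 cases and below in 7, and 3 were higher and 0 lower at an unadjusted p under 0.05 by edgeR (Cps1 0.70, Ctsc 0.42 and Cyp2f2 0.35), where the pericentral ones had 4 lower and 0 higher. DESeq2 called 2 periportal and 3 pericentral markers. The periportal markers summed to 8796 to 9617 and 7303 to 11080 CPM, the 9 Kupffer cell and macrophage markers to 93.6 to 196 and 103 to 145 CPM, and the 7 bile duct and gallbladder markers tested to 29.2 to 51.4 and 26.9 to 49.98 CPM. Endothelial, stellate and lymphocyte markers overlapped between the groups in their sums as well. The pericentral sums overlapped slightly. They include Cyp1a2, at 844 ± 771 CPM in HFDfre and 299 ± 73.7 CPM in HFDfri, which was high in HFDfre 1 and HFDfre 3. The part of the pericentral markers in the enzyme levels was not tested.

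In the RefSeq promoter windows (250 bases before to 50 after the start, both strands) the antioxidant response element, searched as TGACNNNGC, was found for 3 of the 50 enzymes with a window, against 14.0% of all genes. The 3 were Gsta3, Gstm5 and Gstm7, and none of them passed the adjusted threshold. The HNF1 half-site, searched as GTTAAT, was found for 13 of the 50, namely 6 of 18 glucuronosyltransferases, 6 of 13 sulfotransferases and 1 of 19 glutathione transferases, against 8.24% of all genes. Such matches describe the letters of these windows only.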

How the data were processed

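Liver RNA-seq of 5 HFDfre and 4 HFDfri libraries was used. The deposited values are estimated counts per gene, whole numbers that the authors did not scale between libraries. The submitters' processing notes name HISAT2, StringTie and the build mm10, while an annotation and a strand setting are not given in the sources used here. The labels name NEBNext Ultra as library kit, and the study's methods name KAPA RNA HyperPrep.

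Genes were kept with filterByExpr and compared with edgeR 4.0.16 (R 4.3.3, quasi-likelihood, TMM, HFDfri minus HFDfre, Benjamini-Hochberg over all genes tested). The standard error is the log2 fold change divided by the square root of F. Log2 CPM used a prior count of 2. Alternatives were DESeq2 1.42.0, limma-voom (limma 3.58.1), other scalings and filters, robust dispersion, the replicate number, and each library left out. Coordinates, lengths and shared 100-base stretches came from GENCODE M21, which held 96.3% of the identifiers and all 58 enzymes. Promoters came from RefSeq (GRCm38.p6), with a window for 50 enzymes. The script was tested on simulated data.

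The enzymes, lists and tests were chosen with earlier results of these data known, and the lists were written from general knowledge. Genes were named if they passed the adjusted threshold, were among the 4 most abundant per kb or the 3 largest changes of a class (mean log2 CPM of at least 1), or did not overlap at an unadjusted p under 0.05 (at most 12). Context genes past the threshold and a list of sensors, cofactor genes and transporters were also named. Other genes were named after their values were seen, to complete a subfamily or list. No pair of libraries agreed within counting noise, so each was counted as 1 sample.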

Additional observations from a re-analysis of the deposited data

Results flagged for a closer look

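In 5 of the 82 sets of 4 or 5 libraries searched, 1 library stood apart from the rest of its group by Dixon's test at the 95% level, where chance alone gives about 4.1. Gstt2 was at 59.5 CPM in HFDfre 3 against 48.6 to 51.0 CPM in the other HFDfre libraries. Ugt2b1 was at 255 CPM in HFDfre 4 against 316 to 336 CPM, and this library lies on the far side from HFDfri. Nr1i2 was at 86.6 CPM in HFDfre 4 against 63.5 to 67.8 CPM. Mgst3 was at 19.95 CPM in HFDfre 2 against 23.3 to 24.8 CPM, and remained above the HFDfri libraries. The summed glutathione transferases were at 3863 CPM in HFDfre 2 against 4330 to 4391 CPM. The cause of these deviations was not tested.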

How the results depend on the processing

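Of 20 alternatives, 9 left out a library. All 8 enzymes past the adjusted threshold and all 23 at an unadjusted p under 0.05 had the same direction in every one in which they were tested. The count of 8 became 15 with DESeq2, 2 with library totals, 5 with the share of Gm26924 as a covariate and 4 with no filter, where 7 more enzymes were tested. All genes called in the same 4 fits numbered 1068, 76 and 38 of 14220, and 72 of 19775 with no filter, against 150 in the main fit. Leaving out a library gave 0 to 10, and 18 to 23 at an unadjusted p under 0.05, with 3 to 6 higher and 14 to 20 lower. Library totals gave 11 lower enzymes in place of 18, the covariate 3 higher in place of 5, and no filter a sulfotransferase median of -0.39. Leaving out a library moved the class medians to -0.49 to -0.31 (glutathione transferases), -0.23 to -0.17 (sulfotransferases) and -0.02 to 0.10 (glucuronosyltransferases).

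The replicate numbers did not pair the libraries, since the 4 correlations of same-numbered deviations ran from -0.13 to 0.04. The replicate block, without HFDfre 5, left 0 enzymes and 0 genes past the adjusted threshold by edgeR, with 20 enzymes and 2533 genes at an unadjusted p under 0.05, and DESeq2 without the block had 1068 genes past the adjusted threshold. The sign turned for Gsta3 (limma-voom -0.0336, replicate block -0.0246, -0.0796 to 0.1818 without a library), Ugt1a1 (library totals 0.0086, covariate 0.0011) and Papss2 (-0.0399 to 0.1941 without a library). Across all genes the adjusted calls numbered 150, and 6 to 1106 without a library. The causes of these changes were not tested. Where the deposited values are estimates the count model treats counting error only approximately.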

Other observations

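The liver genes that differ between the sexes were also read, from lists written from general knowledge with earlier results of these data known, since several conjugating enzymes are sex-dependent in the mouse and all of these mice were male. All 12 male-biased genes tested had a positive log2 fold change of HFDfri against HFDfre, with a median of 0.67, and 3 passed an adjusted p of 0.05 by edgeR's quasi-likelihood test. These were Cyp7b1, the oxysterol hydroxylase (80.0 ± 14.5 and 228 ± 95.9 CPM, log2 fold change 1.51 ± 0.25), C6, a complement component (1.14 ± 0.21), and Susd4, a complement regulator (0.89 ± 0.17). Of 10 female-biased genes 9 were below 0, with a median of -1.49. Acot3, a peroxisomal thioesterase, fell from 28.8 ± 12.4 to 5.26 ± 1.90 CPM (-2.45 ± 0.30, edgeR adjusted p = 0.0117), and Abcd2, a peroxisomal transporter, fell by 0.83 on the log2 scale (SE 0.15, edgeR adjusted p = 0.0354).

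Chosen after its values were seen, HFDfre 4 was the HFDfre library with the highest Acot3 (50.4 CPM), Cyp2b9 (24.9 CPM), Sult3a1 (35 counts) and Gsta1 (8.67 CPM), and the lowest Cyp7b1 (56.4 CPM), C6 (68.1 CPM) and Ugt2b1 (255 CPM). The calls of Cyp7b1, C6, Susd4 and Abcd2 were lost without this library, without HFDfre 3, HFDfre 5, HFDfri 3 or HFDfri 4, and with the share of Gm26924 as a covariate. Those of C6 and Abcd2 were also lost without HFDfre 2 and those of Cyp7b1, C6 and Susd4 without HFDfre 1. Abcd2 was lost with library totals (adjusted p = 0.0769 by edgeR) and Susd4 with no filter (0.0504), while Acot3 passed in 19 of 20 alternatives. Bpnt1, which hydrolyses the spent sulfate donor, was at 33.6 ± 3.56 and 47.2 ± 6.17 CPM with no overlap (0.49 ± 0.11, edgeR adjusted p = 0.0566).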
